A study of Homo sapiens with 5 samples.

Results

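The hypoxia response and glycolysis genes described here were 38 of the 20026 genes in the expression table of an ELK4 knockdown experiment in HCT116 cells, a human colorectal carcinoma line. They were taken from a list of symbols and fall into 5 roles: 3 subunits of the hypoxia-inducible factor (HIF), 4 genes of oxygen sensing, 11 HIF targets outside glycolysis, 11 glycolysis genes known as HIF-induced and 9 glycolytic enzymes treated as constitutive. All 38 symbols were found and none was listed at 0 in any sample.

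RNA-seq of poly(A)-selected RNA was carried out on 5 samples, 2 carrying the pLKO.1 lentiviral vector and 3 carrying a short hairpin RNA against ELK4, an ETS-family transcription factor. The labels of the knockdown samples, shELK4_1, shELK4_2 and shELK4_3, are also the names of the study's 3 hairpins. Each knockdown sample was therefore taken to carry a different hairpin, which the labels do not state outright. On that reading every hairpin was measured once and the spread within the group includes differences between hairpins. Infected cells were selected with puromycin, and the growth conditions described for the line name a high-glucose medium and no low-oxygen treatment. Nothing in the labels says that the samples of a group came from separate infections, so the p-values measure only the spread between these samples.

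Under oxygen, the α subunits of HIF are hydroxylated on prolines by the EGLN enzymes, bound by the VHL ubiquitin ligase and degraded. When oxygen is short, the α subunit escapes, pairs with ARNT and binds a short DNA word, the hypoxia response element (HRE), near its target genes. These targets include glucose transporters, several isoforms of the glycolytic enzymes and the lactate exporter SLC16A3. The α subunits are controlled mainly at the protein level, which RNA-seq does not measure.

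Expression is given as FPKM, a count of sequenced fragments divided by transcript length and by the total of mapped reads, so that levels of different genes can be compared. The pLKO.1 samples are the controls, also called the vector samples, and values of a gene are given in the order pLKO.1 samples 1 and 2, then shELK4_1, shELK4_2 and shELK4_3. Log2 fold changes are differences of mean log2(FPKM + 1) between shELK4 and pLKO.1, a scale that understates the change of genes near 1 FPKM. They were tested with limma over the 10780 genes that reached 1 FPKM in at least 2 samples, with Benjamini-Hochberg adjustment over all of them and a threshold of 0.05.

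ELK4 itself, as a check of the labels, was at 8.62 and 7.60 FPKM in the vector samples and at 3.14, 2.82 and 2.44 FPKM in the knockdown samples. It fell by 1.26 ± 0.12 (SE) on the log2 scale (limma, adjusted p = 0.029), although this call was lost without either vector sample (adjusted p = 0.483 and 0.342 without samples 1 and 2), without shELK4_1 (0.0752) or without shELK4_3 (0.0779). Among epithelial markers, EPCAM lay between 118.4 and 165.7 FPKM in all samples, whereas the knockdown means of KRT18, KRT8 and CDH1 were 47.9%, 63.6% and 78.8% of the vector means. The groups of CDH1 overlapped, with 23.1 FPKM in shELK4_1 against 20.5 and 20.3 FPKM with the vector. The endothelial and leukocyte markers summed to at most 0.0735 and 0.161 FPKM. The fibroblast markers summed to 3.355 and 3.15 FPKM with the vector and to 3.678, 3.567 and 4.363 FPKM with the hairpins. Nearly all of that sum was COL1A1, which lay above both vector values with every hairpin (log2 fold change 0.18, limma adjusted p = 0.449). The intestinal marker VIL1 was at or near 0 (up to 0.054 FPKM). The vector samples resembled each other more (SD of log2 differences over genes 0.117) than any pair of hairpins did (0.269 to 0.313). The number of reads behind these FPKM values is unknown, and precision rests on the spread between samples.

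Promoter sequences show where the HRE word stands in some of the genes described below. RefSeq promoter windows of 300 bases (250 before to 50 after the transcription start, GRCh38.p14) were found for 34 of the 38 genes, 13 of them with several windows, and not for VHL, NDRG1, BNIP3L and SLC2A3. The words ACGTG and GCGTG were searched on both strands, so that a CACGTG site counts on each strand. Genes with higher mean FPKM in the knockdown samples (ALDOC, SLC16A3, PFKFB4, ANKRD37, PDK1, CA9 and ENO2) are printed first and, as examples, 2 of the 5 HIF-induced glycolysis genes with a lower mean (PGK1 and SLC2A1) last, 5′ to 3′ on the gene's own strand, with the HRE word, or its reverse complement, in capitals. Further HRE words of these windows are not printed.
ALDOC, 239 bases before the start (chr17:28577122-28577142, minus strand): tgcccggcACGTGgtaaaggg
ALDOC, 28 bases before the start (chr17:28576911-28576931, minus strand): ggaggagtCACGTagctctgc
SLC16A3, 68 bases before the start (chr17:82228966-82228986, plus strand): aggcggtgACGTGcgcggggg
SLC16A3, 55 bases before the start (chr17:82228979-82228999, plus strand): cgcgggggACGTGccgcgcca
PFKFB4, 166 bases before the start (chr3:48556957-48556977, minus strand): ttgggcatGCGTGgtcggagg
ANKRD37, 161 bases before the start (chr4:185396672-185396692, plus strand): cgggctccACGTGccagtgtt
ANKRD37, 143 bases before the start (chr4:185396690-185396710, plus strand): gtttgtgtACGTGcggccgtg
PDK1, 17 bases before the start (chr2:172556065-172556085, plus strand): ctgcccgcCACGTccctcacg
CA9, 18 bases before the start (chr9:35673902-35673922, plus strand): ttccaatgCACGTacagcccg
ENO2, 118 bases before the start (chr12:6914454-6914474, plus strand): gcgctcgtACGTGcgcctccg
PGK1, 202 bases before the start (chrX:78104038-78104058, plus strand): cgtgccggACGTGacaaacgg
SLC2A1, 25 bases after the start (chr1:42958831-42958851, minus strand): aacagcgaGCGTGccggtcgc

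The HRE words are common in promoters. At least 1 was present in 65.1% of the 63 windows of the 38 genes, in 61.9% of the windows of all tested genes and in 48.4% of all 35116 windows. ACGTG alone, the word printed for most genes above, was present in 39.7% of the members' windows, 25.9% of those of tested genes and 21.4% of all windows. By role, HIF-induced glycolysis genes held an HRE word in 15 of 15 windows, HIF targets outside glycolysis in 11 of 15 and constitutive enzymes in 11 of 25, where HK1 and PFKM had 7 windows each. Counted by gene, the roles were alike, with an HRE word in at least 1 window of 10 of 10, 8 of 9 and 8 of 9 genes. The ETS word CCGGAAG, searched on both strands because ELK4 binds such words, stood in 11.1% of the members' windows, 18.1% of those of tested genes and 10.3% of all windows. This ETS word stood in windows of 5 members, ANKRD37, GPI, LDHA, PFKM and PFKP. A match is a run of letters and not a bound site, and some windows of 1 gene overlap.

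All 38 genes passed the limit on low values. CA9 and ANKRD37 passed it only through the knockdown samples, where they are high, so their tests and their place in the counts below rest in part on that limit. No member passed the adjusted threshold in limma, against 18 of the 10780 genes tested (0.167%). At an unadjusted p below 0.05 there were 10 of 38 members (26.3%), against 16.2% of all tested genes. Of these, 8 were higher in the knockdown samples (ALDOC, SLC16A3, VHL, PFKFB4, KDM3A, PDK1, GPI and ANKRD37; 8.08% of all genes were higher), and 2 were lower (EGLN2 and SLC2A1; 8.14% of all genes were lower). The 3 hairpin values lay above both vector values for 11 members, against 19.1% of all genes, and below both for 5 members, against 21.0% of all genes. The other 22 members had overlapping groups. Over the 36 members that reached the limit in the controls too, 0 passed the adjusted threshold, and 7 were higher and 2 lower at an unadjusted p below 0.05.

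One library weighed on these counts. Without shELK4_2, 5 members passed the adjusted threshold (ANKRD37, ENO2, PFKFB4, SLC16A3 and VHL; 95 of 10727 genes, 0.886%), and 15 members were higher and 3 lower at an unadjusted p below 0.05, together 47.4% of the members against 22.8% of all genes. Leaving out CA9 and ANKRD37, these counts were 4, 13 and 3 of 36. Without either vector sample, no member or other gene passed the adjusted threshold, and 6 members were higher and 0 lower at an unadjusted p below 0.05 (15.8% of the members, against 5.42% of all genes without sample 1 and 5.32% without sample 2). Without shELK4_1 or shELK4_3, CA9 and ANKRD37 fell under the limit on low values, 0 and 1 of all tested genes passed the adjusted threshold, and no member did. At an unadjusted p below 0.05, 8 members were then higher and 4 lower without shELK4_1 (33.3%, against 18.3% of all genes), and 7 and 2 without shELK4_3 (25.0%, against 19.2% of all genes).

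**Figure D1:**
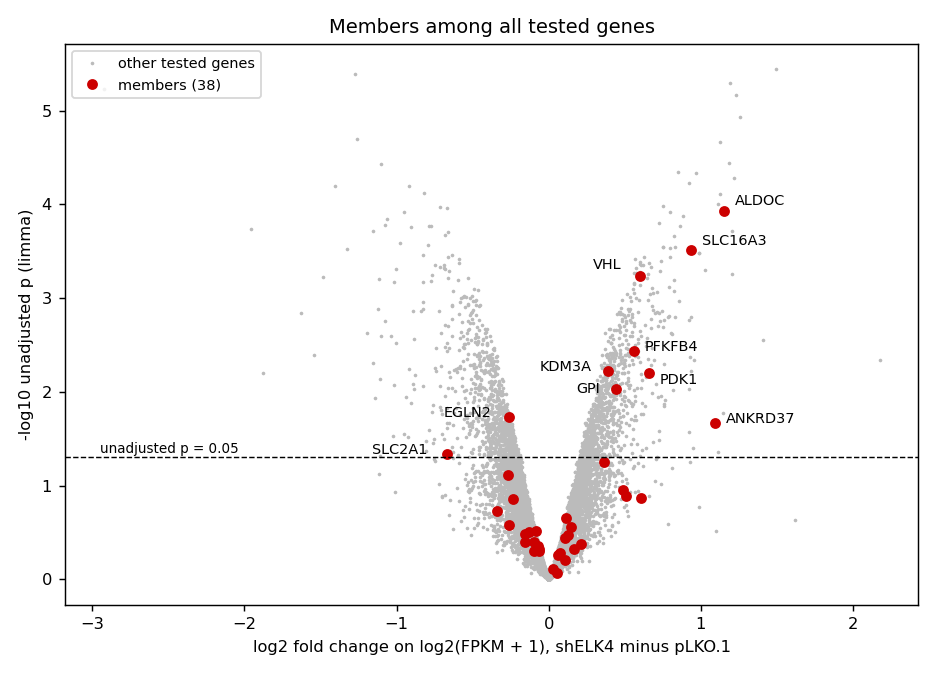
Log2 fold change on the log2(FPKM + 1) scale, shELK4 minus pLKO.1 (x axis), against −log10 of the unadjusted limma p (y axis) for all tested genes in grey and the 38 members in red. The dashed line marks an unadjusted p of 0.05; 8 members lie above it on the right and 2, EGLN2 and SLC2A1, on the left, and ALDOC stands highest of the members.

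The HIF subunits showed no joint direction. HIF1A, which encodes the α subunit of HIF-1, was at 37.7 and 36.6 FPKM in the vector samples and at 41.0, 22.5 and 26.7 FPKM in the knockdown samples. It was above both vector values in shELK4_1 and below them in the other hairpins (log2 fold change −0.34 ± 0.23 SE, 95% interval −0.90 to 0.21, limma adjusted p = 0.494). EPAS1, which encodes the α subunit of HIF-2, was at 8.40 and 8.31 FPKM with the vector and at 18.2, 7.92 and 12.7 FPKM with the hairpins. Only shELK4_2 was below the controls for this gene, and the log2 fold change was 0.51 ± 0.29 (interval −0.19 to 1.20, limma adjusted p = 0.429). ARNT, the shared β subunit, stayed between 7.86 and 9.49 FPKM in all 5 samples (8.01 and 8.27, then 7.86, 9.49 and 9.21 FPKM), with overlapping groups. EPAS1 made up 18.2% and 18.5% of the summed FPKM of both α subunits in the vector samples and 30.7%, 26.1% and 32.2% in the knockdown samples, a share that was higher with every hairpin.

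Of the oxygen-sensing genes, VHL was higher and EGLN2 lower with every hairpin. VHL, the substrate-binding part of the ligase that marks HIF-α for degradation (chr3, 10141778 to 10153667 in GRCh38), was at 18.3 and 18.7 FPKM with the vector and at 28.4, 26.5 and 30.8 FPKM with the hairpins. The groups were well apart, with means of 18.5 ± 0.275 (SD, n = 2) and 28.6 ± 2.16 FPKM (SD, n = 3), a 1.54-fold difference. On the log2 scale the difference was 0.60 ± 0.10 (interval 0.37 to 0.83), with a limma adjusted p of 0.0769. In the annotation used here (GENCODE, GRCh38), 23.5% of the exonic bases of VHL are also covered by the gene ENSG00000287086, and whether the counting separated them is not known.

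The EGLN genes encode the prolyl hydroxylases. EGLN2 was at 33.5 and 34.0 FPKM with the vector and at 29.2, 27.7 and 27.1 FPKM with the hairpins. All hairpins lay below both controls (log2 fold change −0.26 ± 0.08, interval −0.47 to −0.06, limma adjusted p = 0.214), and 30.6% of its exonic bases are shared with other genes, among them the readthrough gene RAB4B-EGLN2. EGLN1, the main hydroxylase of HIF-1α in many cells, was at 14.2 and 13.6 FPKM with the vector and at 13.8, 8.10 and 13.2 FPKM with the hairpins. Only shELK4_2 stood clearly apart (log2 fold change −0.26 ± 0.21, adjusted p = 0.576 in limma), and 55.8% of the exonic bases of EGLN1 overlap another gene. EGLN3, itself a well-known HIF target, was at 2.73 and 2.68 FPKM with the vector and at 3.29, 2.09 and 4.42 FPKM with the hairpins. It was above the controls in shELK4_1 and shELK4_3 and below them in shELK4_2 (log2 fold change 0.17 ± 0.22, adjusted p = 0.743 in limma), and its sign turned without shELK4_3 (−0.02). The median log2 fold change of the 4 genes was −0.05, and 0.17 without shELK4_2.

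HIF targets outside glycolysis were the role with the highest median log2 fold change, 0.36, against −0.01 over all tested genes. Of the 11 genes, 9 had fold changes above 0 and 2 below, 4 were higher at an unadjusted p below 0.05 (8.08% of all genes) and 0 lower (8.14%), and 5 lay above both controls with every hairpin (19.1% of all genes) and 1 below (21.0%). Without CA9 and ANKRD37 the median was 0.21, and 3 of 9 genes were higher. Their summed FPKM was 178.8 and 183.9 in the vector samples and 299.3, 230.9 and 317.2 in the knockdown samples, of which SLC16A3 was the largest part. The median was 0.04 without shELK4_1, when CA9 and ANKRD37 were not tested and the HIF subunits had a higher median (0.18), and between 0.29 and 0.44 without any other single sample.

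SLC16A3, the lactate exporter MCT4, had the lowest p of this role (chr17, 82217934 to 82261129 in GRCh38). It was at 86.7 and 92.4 FPKM with the vector and at 173.1, 147.7 and 199.9 FPKM with the hairpins. Every hairpin exceeded both controls by a wide margin, and the means of 89.6 ± 4.03 (SD, n = 2) and 174 ± 26.1 FPKM (SD, n = 3) differed 1.94-fold. The log2 fold change was 0.94 ± 0.14 (interval 0.61 to 1.26, limma adjusted p = 0.0704). PDK1, the kinase that shuts pyruvate dehydrogenase and keeps pyruvate out of the mitochondria, was at 1.50 and 1.82 FPKM with the vector and at 3.43, 2.40 and 3.88 FPKM with the hairpins. It was 1.96-fold higher in the mean, with all hairpins above the controls (log2 fold change 0.66 ± 0.17, limma adjusted p = 0.147).

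KDM3A, a histone H3 lysine demethylase, was at 7.44 and 7.17 FPKM with the vector and at 10.1, 9.12 and 10.5 FPKM with the hairpins. The hairpins were close to one another and above both controls (log2 fold change 0.39 ± 0.10, adjusted p = 0.144 in limma). ANKRD37, an ankyrin-repeat gene, was at 0.563 and 0.701 FPKM with the vector and at 3.35, 0.9996 and 3.85 FPKM with the hairpins. It was high in shELK4_1 and shELK4_3 and only a little above the controls in shELK4_2. Its log2 fold change was 1.09 ± 0.36 (adjusted p = 0.226 in limma), and in a fit with no limit on low values the adjusted p was 0.35.

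For ANKRD37, 40.3% of the exonic bases are also covered by UFSP2. UFSP2 was at 8.14 and 7.36 FPKM with the vector and at 8.001, 9.48 and 6.22 FPKM with the hairpins, and the part of shared reads in the ANKRD37 values was not tested. CA9, the membrane carbonic anhydrase used as a hypoxia marker in tumours, was at 0.136 and 0.254 FPKM with the vector and at 1.67, 0.0732 and 1.09 FPKM with the hairpins. The gene was thus several times higher in shELK4_1 and shELK4_3 and below both controls in shELK4_2 (log2 fold change 0.61 ± 0.36, interval −0.25 to 1.46, adjusted p = 0.436 in limma, and 0.559 with no limit on low values). The overlapping gene ARHGEF39, which covers 35.7% of the exonic bases of CA9, was at 3.02 and 3.01 FPKM with the vector and at 2.75, 4.23 and 4.58 FPKM with the hairpins, and the part of shared reads in the CA9 values was not tested.

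The mitophagy receptor BNIP3L was at 11.4 and 11.8 FPKM with the vector and at 17.7, 12.2 and 16.3 FPKM with the hairpins. It lay above both controls with every hairpin, by little in shELK4_2 (log2 fold change 0.36 ± 0.16, interval −0.01 to 0.74, adjusted p = 0.321 in limma). P4HA2, a collagen prolyl hydroxylase subunit, was at 5.49 and 5.32 FPKM with the vector and at 4.89, 5.30 and 5.07 FPKM with the hairpins, below both controls by a small margin. The remaining genes of this role, the mitophagy receptor BNIP3, the stress-induced NDRG1, the collagen prolyl hydroxylase subunit P4HA1 and the collagen lysyl hydroxylase PLOD2, had overlapping groups and log2 fold changes from −0.16 (PLOD2) to 0.21 (NDRG1).

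**Figure D2:**
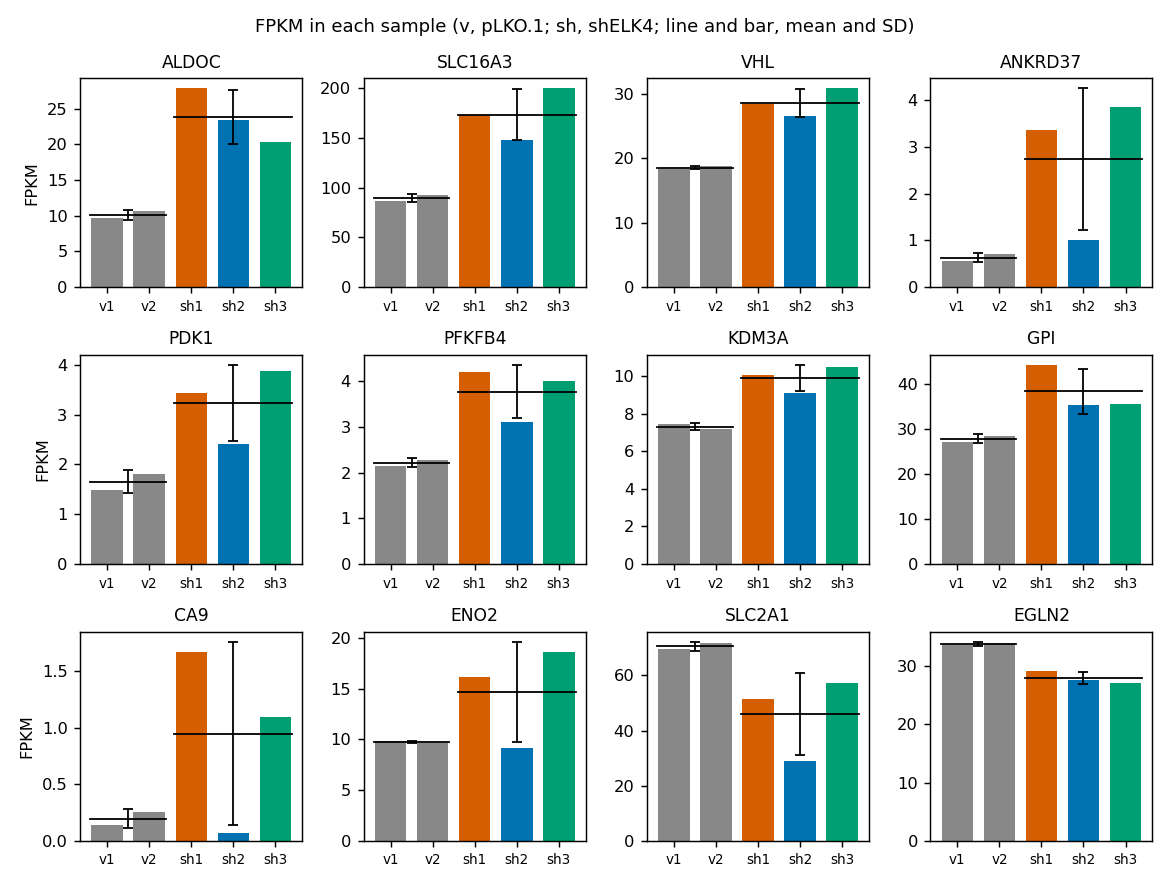
FPKM (y axis, from 0) of 12 genes in each of the 5 samples, with v1 and v2 the pLKO.1 samples and sh1, sh2 and sh3 the samples of the 3 hairpins; horizontal lines are group means and error bars SDs (n = 2 and 3). ALDOC, SLC16A3 and VHL were higher with all hairpins, SLC2A1 and EGLN2 were lower with all, and CA9 and ENO2 were at or below the vector level in sh2 alone.

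Among the 11 HIF-induced glycolysis genes, ALDOC and PFKFB4 were higher and SLC2A1 lower at an unadjusted p below 0.05, and the other 8 did not pass that threshold. ALDOC, the aldolase isoform best known from brain (chr17, 28573115 to 28576948 in GRCh38), was at 9.63 and 10.6 FPKM with the vector and at 27.9, 23.5 and 20.3 FPKM with the hairpins. Every hairpin value was far above both controls, the means were 10.1 ± 0.686 (SD, n = 2) and 23.9 ± 3.81 FPKM (SD, n = 3), and the difference was 2.36-fold. The log2 fold change of 1.15 ± 0.14 (interval 0.81 to 1.49) was 23rd in order of p among all tested genes (limma adjusted p = 0.0527). The paper, with a differential test that it does not name, lists ALDOC as higher on ELK4 knockdown and past its FDR limit. It also lists ANKRD37 as higher, but not past that limit. ENSG00000265168 covers 11.3% of the exonic bases of ALDOC. The adjusted p was 0.539 without pLKO.1 sample 2 and 0.626 without sample 1, with log2 fold changes of 1.21 and 1.09.

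PFKFB4, which makes and breaks down the phosphofructokinase activator fructose 2,6-bisphosphate, was at 2.15 and 2.28 FPKM with the vector and at 4.19, 3.11 and 4.01 FPKM with the hairpins. All hairpins lay above both controls (1.70-fold in the means, log2 fold change 0.56 ± 0.13, limma adjusted p = 0.132). Its relative PFKFB3 was at 14.8 and 15.1 FPKM with the vector and at 12.7, 16.8 and 12.6 FPKM with the hairpins, with shELK4_2 above and the other hairpins below the controls. ENO2, the enolase isoform of neurons, was at 9.80 and 9.68 FPKM with the vector and at 16.2, 9.17 and 18.6 FPKM with the hairpins. It was higher in shELK4_1 and shELK4_3 and not in shELK4_2. Over all hairpins the log2 fold change of ENO2 was 0.49 ± 0.27 (interval −0.15 to 1.13, adjusted p = 0.408 in limma), and without shELK4_2 it was 0.77 (adjusted p = 0.0472).

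SLC2A1, the glucose transporter GLUT1, was the HIF-induced glycolysis gene with the most negative fold change. It was at 69.4 and 71.6 FPKM with the vector and at 51.5, 29.0 and 57.2 FPKM with the hairpins. All hairpins were below both controls, shELK4_2 by the most, and the mean was 65.1% of the control mean (log2 fold change −0.67 ± 0.27, interval −1.32 to −0.01, limma adjusted p = 0.298). Without shELK4_2 the log2 fold change was −0.37 (adjusted p = 0.0916). SLC2A3, the glucose transporter GLUT3, was at 2.50 and 2.62 FPKM with the vector and at 1.86, 3.72 and 3.19 FPKM with the hairpins, with shELK4_1 below and the others above the controls. Its log2 fold change was 0.11 ± 0.21 and turned to −0.04 without shELK4_2, and 14.4% of its 50-base exon words also occur in other genes, mainly SLC2A14.

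HK2, the HIF-induced hexokinase, differed little between the groups. It was at 13.8 and 14.8 FPKM with the vector and at 14.6, 13.6 and 15.6 FPKM with the hairpins, and the interval of the log2 difference ran from −0.21 to 0.26. ENO1, the main enolase, was at 571.5 and 597.9 FPKM with the vector and at 548.8, 553.6 and 552.3 FPKM with the hairpins, below both controls by a small margin (log2 fold change −0.08, and 0.03 after quantile normalization). ALDOA, the main aldolase, was at 239.3 and 243.7 FPKM with the vector and at 241.9, 200.6 and 237.4 FPKM with the hairpins. The groups of ALDOA overlapped, and 54.2% of its exonic bases are covered by other genes. LDHA, which makes lactate, and PGK1, phosphoglycerate kinase, also had overlapping groups, with log2 fold changes of 0.13 (interval −0.17 to 0.42) and −0.16 (interval −0.51 to 0.20). The median over this role was 0.03, with 6 genes above 0 and 5 below.

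Of the 9 constitutive enzymes, GPI alone passed the unadjusted threshold. GPI, which turns glucose 6-phosphate into fructose 6-phosphate, was at 27.2 and 28.5 FPKM with the vector and at 44.2, 35.3 and 35.6 FPKM with the hairpins. All hairpins were above both controls (1.38-fold in the means, log2 fold change 0.44 ± 0.12, interval 0.15 to 0.73, limma adjusted p = 0.169). The promoter window of GPI holds ACGTG 162 bases before the start (chr19:34364822-34364842, plus strand), in tgcctgtaACGTGgaaggtgt, and is shown because GPI is counted here as constitutive.

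The phosphofructokinase subunits, which form the committed step of glycolysis, differed in direction. PFKP, the platelet-type subunit and the most abundant, was at 56.5 and 53.2 FPKM with the vector and at 52.8, 40.5 and 43.6 FPKM with the hairpins. PFKL, the liver-type subunit, was at 20.2 and 19.9 FPKM with the vector and at 26.1, 20.4 and 20.8 FPKM with the hairpins. PFKM, the muscle-type subunit, was at 22.9 and 22.2 FPKM with the vector and at 25.0, 23.3 and 25.3 FPKM with the hairpins. PFKP was below both controls with every hairpin, and PFKL and PFKM were above them, by little except for PFKL in shELK4_1. None of the subunits passed the unadjusted threshold, with log2 fold changes of −0.27 ± 0.13 for PFKP (limma adjusted p = 0.351), 0.15 ± 0.13 for PFKL and 0.12 ± 0.09 for PFKM.

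HK1, the widely expressed hexokinase, was at 16.1 and 16.0 FPKM with the vector and at 16.4, 12.8 and 14.9 FPKM with the hairpins, with overlapping groups. TPI1, GAPDH, PGAM1 and PKM, which carry out later steps, also overlapped, with log2 fold changes from −0.23 (TPI1) to 0.06 (PGAM1). GAPDH, often used as a reference gene, was the most abundant member, with means of 2049 ± 2.84 FPKM (SD, n = 2) and 1963 ± 118 FPKM (SD, n = 3) and an interval of −0.27 to 0.14 for the log2 difference. Shared sequence limits PGAM1, of whose 50-base exon words 40.0% occur in other genes, and, to a lesser extent, TPI1 (12.6%) and GAPDH (9.47%). The summed FPKM of the 16 enzymes from hexokinase to lactate dehydrogenase was 4512 and 4544 in the vector samples and 4526, 4046 and 4528 in the knockdown samples. Only the shELK4_2 sum was outside the range of the vector samples.

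**Figure D3:**
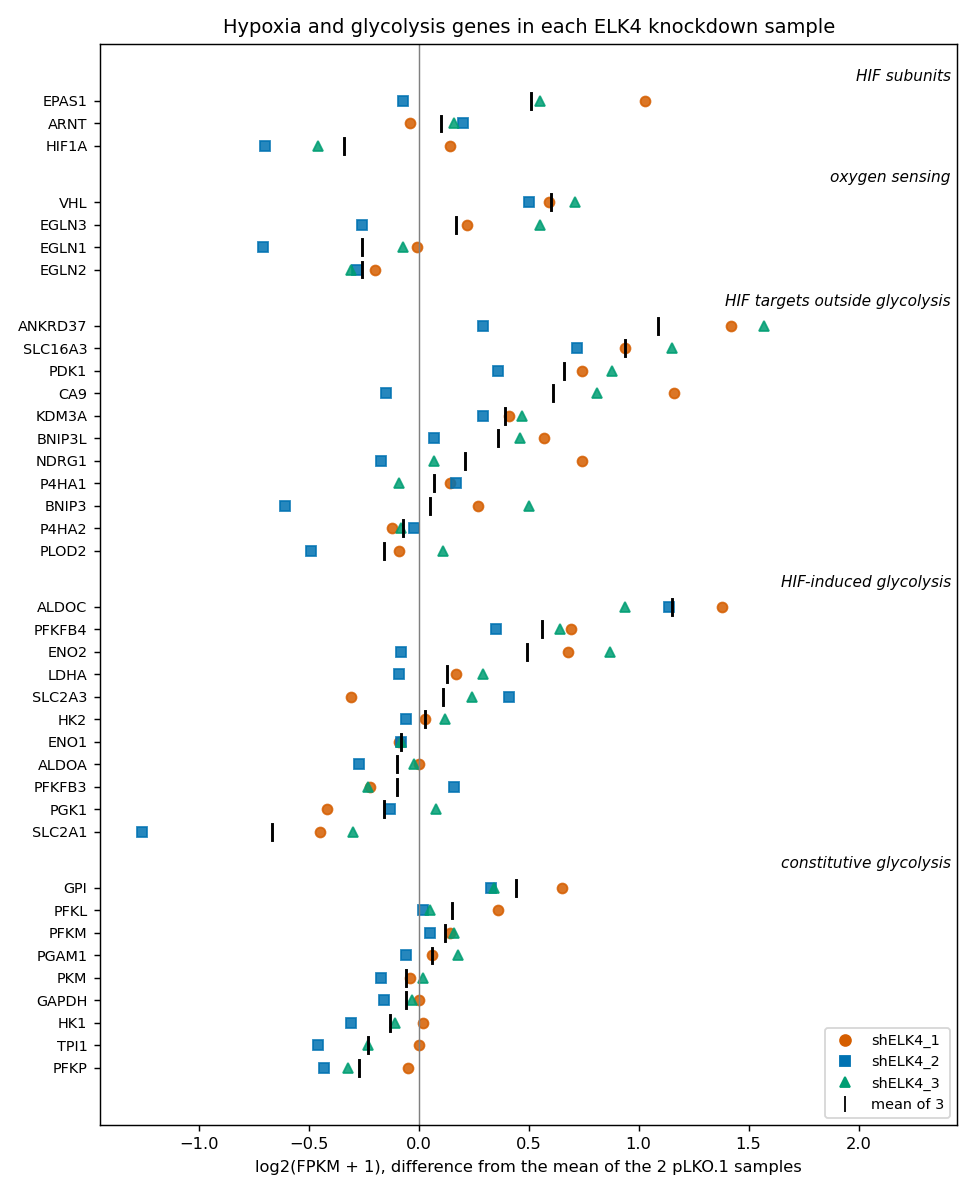
Difference of log2(FPKM + 1) from the mean of the 2 pLKO.1 samples (x axis) for each of the 38 genes (y axis, grouped by role) in shELK4_1 (circles), shELK4_2 (squares) and shELK4_3 (triangles), with the mean of the 3 as a vertical bar. The squares are the leftmost of the 3 symbols for 29 of the 38 genes, including all 9 constitutive enzymes.

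Isoform choice within a step was compared as a log2 ratio of 2 isoforms in the same sample, which does not depend on how a library was scaled apart from the added 1 FPKM. With 2 samples against 3 there are 10 arrangements. The exact two-sided permutation p was taken as 2 times that of the smaller tail, so it cannot go below p = 0.2. None of the 6 pairs could therefore pass a threshold of 0.05, and the lowest adjusted p over the 6 pairs was 0.3. The ratio of ALDOC to ALDOA was −4.50 and −4.40 with the vector and −3.07, −3.04 and −3.49 with the hairpins, a difference of 1.25 with no overlap (exact permutation p = 0.2). As a share of the summed FPKM of both aldolases, ALDOC was 3.87% and 4.17% with the vector and 10.3%, 10.5% and 7.86% with the hairpins. ALDOA nevertheless remained the bulk of aldolase RNA in every sample.

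PFKFB4 to PFKFB3 differed by 0.66 with no overlap (exact permutation p = 0.2), and PFKFB4 was 12.7% and 13.1% of their sum with the vector and 24.9%, 15.6% and 24.1% with the hairpins. The share was again lowest of the hairpins in shELK4_2. PFKP to PFKL differed by −0.42 with no overlap (exact permutation p = 0.2), from 1.44 and 1.37 with the vector to 0.99, 0.96 and 1.03 with the hairpins, a spread between hairpins that was small beside the difference. PFKP was 56.7% and 55.8% of the RNA of the 3 phosphofructokinases with the vector and 50.8%, 48.1% and 48.6% with the hairpins.

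SLC2A3 to SLC2A1 differed by 0.78 (exact permutation p = 0.2), carried largely by shELK4_2, where SLC2A3 was 11.4% of the sum against 3.47% and 3.53% in the controls. In shELK4_1 the share was 3.49%, between the controls. The shares thus overlapped, although the ratios with the added 1 FPKM did not (−4.33 and −4.33 with the vector, −4.20 in shELK4_1). Without shELK4_2 the difference was 0.33. The groups overlapped for ENO2 to ENO1 (difference 0.57, exact permutation p = 0.4) and for HK2 to HK1 (difference 0.16, exact permutation p = 0.4). ENO2 was 1.69% and 1.59% of enolase RNA with the vector and 2.86%, 1.63% and 3.26% with the hairpins, and HK2 was between 46.0% and 51.6% of hexokinase RNA in all samples.

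**Figure D4:**
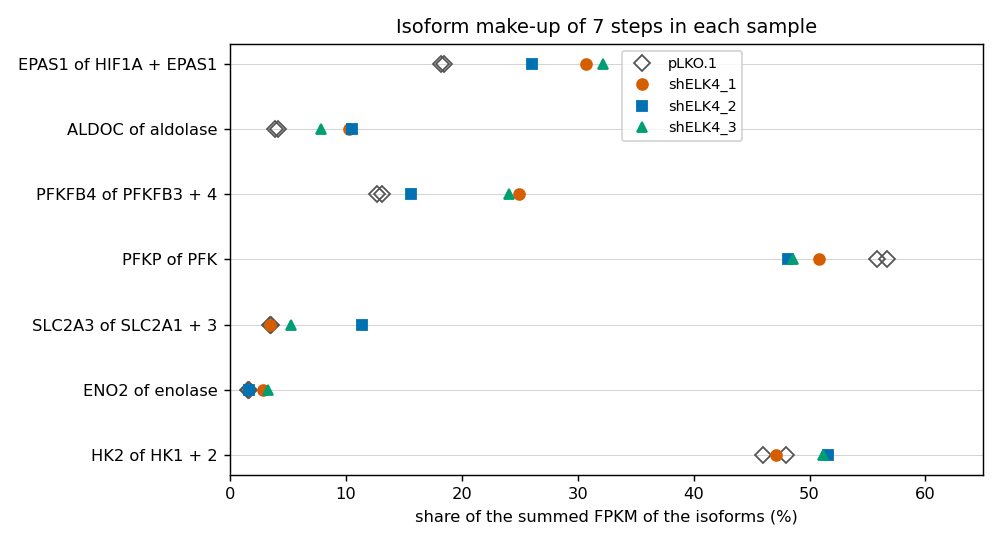
Share of the summed FPKM of the isoforms of a step (x axis, percent) for 7 isoforms (y axis) in the 2 pLKO.1 samples (open diamonds) and the 3 hairpins (filled symbols). EPAS1, ALDOC and PFKFB4 had a larger share with every hairpin than in both vector samples and PFKP a smaller one, whereas the HK2, ENO2 and SLC2A3 shares overlapped.

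The hairpins differed among themselves more than the vector samples did, and mostly in 1 way. shELK4_2 had the lowest of the 3 hairpin values for 29 of the 38 members (76.3%), against 39.9% of all tested genes. By role these were 9 of 11 HIF targets outside glycolysis, 9 of 9 constitutive enzymes and 6 of 11 HIF-induced glycolysis genes. In the gene lists described below, shELK4_2 was lowest for 13 of 28 further hypoxia genes and 11 of 20 further glycolysis genes. It was also lowest for 8 of 10 proliferation genes and 4 of 5 tested epithelial genes, so a high share was not particular to the members. The median log2 difference from the vector samples over all members was 0.14, −0.07 and 0.14 in hairpin order, and over the HIF targets outside glycolysis it was 0.57, 0.07 and 0.47. Over all tested genes these medians were −0.01, −0.02 and 0.01.

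A group of 8 members (21.1%, against 9.01% of all tested genes) lay above both vector samples in shELK4_1 and shELK4_3 but not in shELK4_2, namely EPAS1, EGLN3, CA9, NDRG1, BNIP3, ENO2, LDHA and PGAM1. NDRG1 differed from the controls by 0.74, −0.17 and 0.07 on the log2 scale in shELK4_1, shELK4_2 and shELK4_3, and BNIP3 by 0.27, −0.61 and 0.50. The sign of the mean difference of NDRG1 turned without shELK4_1 (−0.05), and that of BNIP3 without shELK4_1 (−0.05) or shELK4_3 (−0.17). ELK4 itself was at 3.14, 2.82 and 2.44 FPKM in the same samples, and the part of the degree of knockdown was not tested. Summed over 10 proliferation genes, FPKM was 668.0 and 655.3 with the vector and 640.5, 569.8 and 782.7 with the hairpins. The epithelial markers, mostly KRT8 and KRT18, summed to 1891 and 1889 and to 1381, 949.8 and 1110. Both sums were lowest in shELK4_2. Neither list had a gene that passed the adjusted limma threshold, with 0 of 10 proliferation genes and 3 of 5 tested epithelial genes (KRT8, KRT18 and CDX2, all lower) at an unadjusted p below 0.05. Their part in the values of the hypoxia and glycolysis genes was not tested.

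Beyond the 38 genes, 64 further genes of both pathways were listed, of which 48 passed the limit on low values. None of them passed the adjusted threshold in limma, and 9 had an unadjusted p below 0.05. Among 28 tested hypoxia genes 6 were higher and 0 lower (21.4%, against 16.2% of all genes in either direction), with a median log2 fold change of −0.02. DDIT4, an inhibitor of mTORC1 induced by several stresses, was at 27.0 and 24.2 FPKM with the vector and at 94.5, 43.8 and 80.2 FPKM with the hairpins, with shELK4_2 once more the lowest of the hairpins and above both controls (log2 fold change 1.40 ± 0.30, adjusted p = 0.12 in limma).

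The other 5 hypoxia genes were ZNF395 (log2 fold change 0.60), the endoplasmic reticulum oxidase ERO1A (0.50), the lipid droplet gene HILPDA (0.50), the ubiquitin ligase subunit WSB1 (0.32) and the HIF antagonist CITED2 (0.28), with limma adjusted p from 0.112 to 0.3. VEGFA, the angiogenic growth factor, and ADM, adrenomedullin, were above both controls in shELK4_1 and shELK4_3 and below them in shELK4_2, with log2 fold changes of 0.07 and −0.03. Among 20 tested glycolysis genes 2 were higher, the pyruvate dehydrogenase kinase PDK2 (0.42, adjusted p = 0.138 in limma) and the phosphoglucomutase PGM1 (0.37, adjusted p = 0.277). TIGAR, which lowers fructose 2,6-bisphosphate, was the 1 glycolysis gene that was lower, at 9.24 and 8.77 FPKM with the vector and 5.38, 4.86 and 5.84 FPKM with the hairpins (log2 fold change −0.66, adjusted p = 0.0743 in limma). All hairpins lay below both controls for TIGAR.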

How the data were processed

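RNA-seq of 5 HCT116 samples was used, 2 with pLKO.1 and 3 with ELK4 hairpins, taken from the labels to be different. The authors deposited FPKM values per gene, calculated with Cufflinks and normalized to the mapped reads of each sample. The submitters' processing notes also name Trimmomatic 0.36, HISAT2 2.0.5, Cufflinks 2.2.1 and HTSeq 0.9.1, in no stated order. The genome build, annotation and strand setting are not given in the sources used here. The deposited table holds no counts, so read depth is unknown. Of 20030 entries, 4 with 2 repeated names were dropped.

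log2(FPKM + 1) values of genes with at least 1 FPKM in at least 2 samples were fitted with limma 3.58.1 (R 4.3.3, trended empirical Bayes), tested first on simulated data, and isoform ratios with exact permutation tests (scipy 1.17.1). Overlaps and shared 50-base exon words come from GENCODE on GRCh38.

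The members, the further pathway genes and the tests were chosen with earlier results of these data known. Values in every sample are given for HIF subunits, VHL and EGLN genes, CA9, isoform pairs, members with an unadjusted p below 0.05 or groups that do not overlap, and the 5 largest differences each way. Other members are given by range, up to 10 further pathway genes by lowest p, and NDRG1, BNIP3, VEGFA, ADM and TIGAR's sample values were added after their values were seen. The alternatives were pseudocount, limit on low values, scaling, a replicate block, a variance weight for each group and leaving out each sample, and counts without CA9 and ANKRD37 were added after seeing the data.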

Additional observations from a re-analysis of the deposited data

How the results depend on the processing

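The call of 0 members past the adjusted limma threshold (10 at an unadjusted p below 0.05) became 1 member with the replicate block (ALDOC, adjusted p = 0.049), 5 with a weight for each group (ALDOC, SLC16A3, VHL, PFKFB4 and PDK1), which uses the closeness of the 2 vector samples, and 0 to 5 when 1 sample was left out. Members at an unadjusted p below 0.05 were 16 with the weights and 6 to 18 with 1 sample left out, of which 6 to 15 were higher. Lower members numbered 1 without a limit on FPKM, 1 with the block, 0 after quantile normalization, 4 with the weights and 0 to 4 with 1 sample left out. Members whose groups did not overlap numbered 16 with all samples and 17 to 25 with 1 left out, which follows in part from having fewer samples. With all samples, 11 members were higher and 5 lower in this sense, against 19.1% and 21.0% of all genes. Without shELK4_2 these counts were 19 and 6 of 38 members, against 28.0% and 28.5% of all genes. Over all tested genes, 18 passed the adjusted threshold, 0 without a limit on FPKM, 413 with the weights and 0 to 95 with 1 sample left out, and 1749 had an unadjusted p below 0.05, 571 to 2441 with 1 left out. Of the further pathway genes, 0 passed the adjusted threshold, 5 with the weights and 0 to 3 with 1 sample left out, and 9 had an unadjusted p below 0.05, 5 to 14 with 1 left out. The median over HIF targets outside glycolysis was 0.04 to 0.44 with 1 sample left out. Signs turned for EGLN3 (0.17, −0.02 with the block, −0.02 to 0.38 with 1 sample left out), HK2 (0.03, −0.02 with the block, −0.02 to 0.08), SLC2A3 (0.11, −0.04 to 0.32) and ENO1 (−0.08, and 0.03 after quantile normalization). They also turned for BNIP3 (0.05, −0.17 with the block and as low as −0.17 with 1 sample left out), NDRG1 (0.21, −0.05 without shELK4_1) and PLOD2 (−0.16, 0.01 without shELK4_2), and ALDOA (−0.10) was at 0.00 after quantile normalization. A pseudocount of 0.1, a limit on mean FPKM and median-of-ratios scaling kept the direction and side of the adjusted threshold of every member, apart from CA9, which was not tested under a limit on mean FPKM. ELK4 lost its call without a limit on FPKM (adjusted p = 0.114). The replicate numbers 1 and 2 occur in both groups and were taken to name separate samples, so the block was kept as an alternative. Deviations of samples with the same number correlated at 0.0776 and 0.0225. With 2 vector samples, and knockdown samples taken to carry different hairpins, these correlations are a weak check of pairing. Fits with 1 vector sample assume that it varies like the hairpins. The causes of these differences were not tested. The limits are 2 vector samples, 1 sample per hairpin as the labels were read, unknown read depth and overlapping genes. Whether the counting separated such genes is not known.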
